A study of Mus musculus with 18 samples.

Results

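The 10 genes described encode 9 apolipoproteins, which are protein parts of plasma lipoproteins, and the microsomal triglyceride transfer protein, which acts in lipoprotein assembly. They are Apoa1, Apoa2, Apoa4, Apoa5, Apob, Apoc1, Apoc2, Apoc3, Apoe and Mttp. They were taken by symbol from a table of raw read counts for 55487 genes, and all 10 were present and passed the filter on low counts in each comparison. The 18 livers sequenced came from male C57BL/6J mice, with 6 mice in each of 3 groups and 1 library per mouse. The question was what a diet that promotes fatty liver disease, and added lysosomal acid lipase on that diet, did to liver transcripts.

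All mice, controls included, carried an adeno-associated virus of serotype 8 (AAV8) with the TBG promoter, which acts in hepatocytes. CON-GFP mice received the virus with GFP and ate a purified control diet. FPC-GFP mice received the same GFP virus and ate the FPC diet, a high-fat feed with added fructose, palmitate and cholesterol that was given with sugared drinking water. FPC-LIPA mice ate the FPC diet and received the virus with human LIPA, the gene of lysosomal acid lipase (LAL). The mice were bought at 7 weeks of age, rested for 1 week, received the virus 1 week before the diet began, and were fed for 16 weeks and fasted for 4 h before collection. The count table had no row for the human transgene, and mouse Lipa lay at 202 to 304 counts per M (CPM) in CON-GFP, while FPC-GFP livers held 240 to 406 CPM and FPC-LIPA livers 254 to 385 CPM of it, so the vector labels were not checked by its target.

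Hepatocytes package triglyceride and cholesteryl ester with apolipoprotein B into very-low-density lipoprotein (VLDL), and MTTP loads the lipid onto the growing chain in the endoplasmic reticulum. Apolipoproteins A-I and A-II are the main proteins of high-density lipoprotein (HDL), and the small exchangeable apolipoproteins move between particles and set how fast lipoprotein lipase and the hepatic receptors clear them. The liver makes most of these proteins, while the small intestine is the other main source of Apob, Apoa1 and Apoa4.

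On the GRCm38 assembly 7 of the 10 genes lay in 2 groups of neighbours. On chromosome 9, Apoa1 (ENSMUSG00000032083, chr9:46228580-46230466, + strand), Apoc3 (ENSMUSG00000032081, chr9:46232933-46235636, - strand), Apoa4 (ENSMUSG00000032080, chr9:46240696-46243459, + strand) and Apoa5 (ENSMUSG00000032079, chr9:46268633-46271919, + strand) spanned 43.3 kb. On chromosome 7, Apoc2 (ENSMUSG00000002992, chr7:19671579-19677941), Apoc1 (ENSMUSG00000040564, chr7:19689481-19692660) and Apoe (ENSMUSG00000002985, chr7:19696109-19699188), all on the - strand, spanned 27.6 kb. Apob (ENSMUSG00000020609) lay at chr12:7977648-8016835 on the + strand, Apoa2 (ENSMUSG00000005681) at chr1:171225054-171226379 on the + strand and Mttp (ENSMUSG00000028158) at chr3:138089854-138144968 on the - strand. Values are counts over the annotated exons of each gene. Of the exonic bases of Apoc2, 79.5% are shared with the gene model Gm44805 on the same strand, and Gm44805 had 0 to 2 counts in each of the 18 libraries. Few reads were thus assigned to Gm44805, but those in the shared bases could have been left out as ambiguous, so the values of Apoc2 are uncertain. On the opposite strand, antisense genes cover 34.8% (Gm10680) and 34.9% (Gm47528) of the exonic bases of Apoa4 and 20.8% of those of Apoa5 (Gm47544), and Trmt10a covers 7.36% of those of Mttp, and the strand setting of the counting is not given in the sources used here.

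The neighbours on chromosome 9 responded to the diet in different directions, so the sequences just before their starts are shown where RefSeq has them. RefSeq gave promoter windows for 8 of the 10 genes (12 windows, GRCm38.p6), and Apoc1 and Apoc3 were not matched. The 250 bases before each RefSeq start were searched on both strands for the TATA box (TATAAA), the motif of NF-Y (CCAAT) and that of Sp1 (GGGCGG), CAAAGTCCA (HNF4), TGTTTAC (FOXA), AGGTCA (nuclear receptor half-site), TGACGTCA (cAMP response element), TTGCGCAA (C/EBP) and CACGTG (E-box), which do not overlap one another in the stretches shown. Each stretch ends at the base before the annotated gene start and is written 5′ to 3′ on the gene's strand, with matches in capitals. They come from chr9:46240594-46240695 for Apoa4, chr9:46268383-46268632 for Apoa5 and chr9:46228380-46228579 for Apoa1.
Apoa4: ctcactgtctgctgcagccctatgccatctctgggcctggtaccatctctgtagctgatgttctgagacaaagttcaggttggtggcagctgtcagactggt
Apoa5: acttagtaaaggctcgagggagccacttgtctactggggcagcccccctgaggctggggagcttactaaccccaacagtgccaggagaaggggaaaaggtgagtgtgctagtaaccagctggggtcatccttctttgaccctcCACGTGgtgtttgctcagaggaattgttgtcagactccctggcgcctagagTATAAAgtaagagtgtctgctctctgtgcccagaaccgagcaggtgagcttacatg
Apoa1: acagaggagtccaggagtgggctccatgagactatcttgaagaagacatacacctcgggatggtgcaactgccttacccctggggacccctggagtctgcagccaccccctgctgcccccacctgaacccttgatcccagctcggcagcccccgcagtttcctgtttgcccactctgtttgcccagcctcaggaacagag
The stretch of Apoa5 held an E-box at -107 to -102 and a TATA box at -56 to -51, counted from the start, and those of Apoa4 and Apoa1 held none of the 9 motifs. Over all the genome's promoter windows of this length TATAAA was present in 12.3% and CACGTG in 6.04%, against 5 and 2 of the 12 windows of these genes. The 2 with an E-box are overlapping windows of Apoa5, and both are also among the 5 with TATAAA. Another of those 5, a window of Apoe, lies inside the annotated gene. CCAAT was present in 33.8% of all windows and in 2 of the 12, AGGTCA in 14.0% and in 2, and TGTTTAC in 3.17% and in 1. The other 4 motifs, found in 33.0% (GGGCGG), 1.56% (TGACGTCA), 0.387% (CAAAGTCCA) and 0.166% (TTGCGCAA) of all windows, were in none of the 12. A match is a description of these letters and does not show that a factor binds.

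Total counts per library ranged from 16.6 to 37.7 M, and the 10 genes together took 4.28% to 6.49% of them. The 11 hepatocyte markers, led by Alb and Ttr, were all detected in every group, at summed levels of 44915 to 104642 CPM. In 3 of the 6 FPC-LIPA libraries, those of mice 36, 37 and 39, cytosolic ribosomal protein genes took 6.33%, 7.97% and 8.02% of counts, against 1.39% to 2.86% in the other 15. In the same 3 libraries log2 levels fell with transcript length, with slopes of -0.25, -0.18 and -0.25 per doubling against -0.01 to 0.17 elsewhere. Their slopes per 10 points of GC content were -0.61, -0.91 and -0.25. In the other 15 libraries the GC slopes ran from -0.49, in CON-GFP mouse 2, to 0.46. The 10 genes are given with and without the libraries of mice 36, 37 and 39 in FPC-LIPA against FPC-GFP, a choice made after seeing the data.

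In control livers the 10 genes differed widely in abundance. Per kb of exon, Apoa2 had the highest level of the 10 in CON-GFP, 18992 ± 2723 CPM per kb (SD, n = 6). Apoe, whose protein is the ligand for receptor uptake of remnant particles, followed at 8991 ± 2268 CPM per kb. Apoc1 at 7915 ± 2116 CPM per kb and Apoa1 at 5914 ± 1510 CPM per kb each lay below the gene before it in this order by less than that gene's SD. Apoc3 stood at 3003 ± 704 CPM per kb. Apoa5 at 1197 ± 292 and Apoa4 at 840 ± 272 CPM per kb were further apart than 1 SD, with overlapping livers. Apob had 343 ± 50.9 CPM per kb, Mttp 39.5 ± 3.46 and Apoc2 3.99 ± 0.473. The place of Apoc2, the activator of lipoprotein lipase, at the bottom of this order rests on counts that the overlapping gene model makes uncertain, between 45 and 106 reads in each CON-GFP library.

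**Figure D1:**
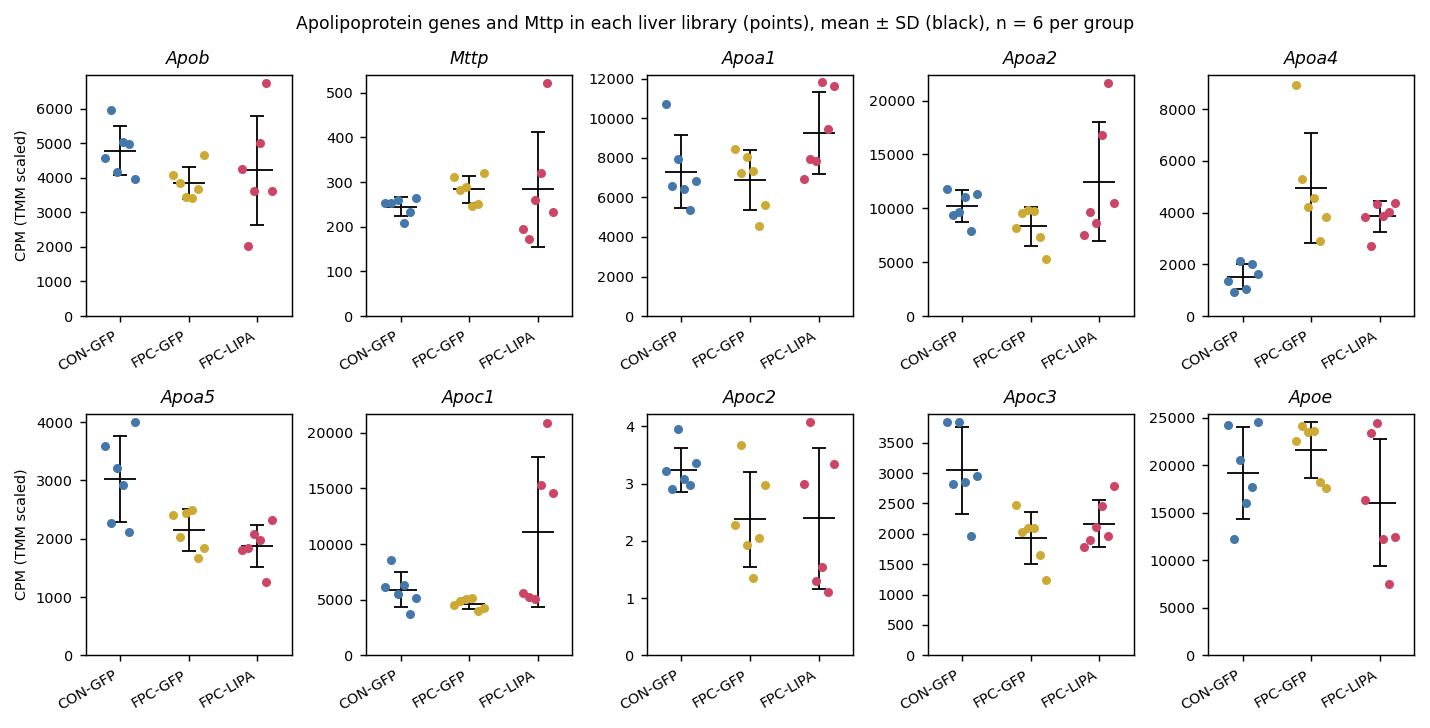
Level of each gene in CPM, scaled by TMM over all 18 libraries (y axis, linear from 0), by group (x axis). Points are single livers and black bars are the mean ± SD of 6 livers. Apoa4 in CON-GFP, at most 2125 CPM, lies below every liver of the 2 groups on the FPC diet, and Apoc1 in FPC-LIPA has 3 livers from 5041 to 5601 CPM and 3 from 14543 to 20836 CPM.

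With the FPC diet in GFP mice 3 of the 10 genes had an adjusted p under 0.05, beside 23.8% of all genes tested, and all 3 lie in the chromosome 9 group. Apoa4, which encodes an apolipoprotein of chylomicrons and HDL, rose 3.22-fold, whereas Apoc3 and Apoa5 fell by less than 2-fold. The other 7 genes, among them Apob, Mttp, Apoa1 and Apoe, did not pass the test.

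Apoa4 lay between 942 and 2125 CPM in the 6 CON-GFP livers, with a median of 1507 CPM. In FPC-GFP it lay between 2886 and 8936 CPM, with a median of 4376 CPM. All 6 FPC-GFP livers were above the highest CON-GFP liver. In edgeR's quasi-likelihood test the log2 fold change was 1.69 (SE 0.27, adjusted p = 0.00078), the only one of the 10 to reach the definition of a differentially expressed (DE) gene, at least 2-fold with an adjusted p under 0.05. Of the 14307 genes tested, 7.2% were DE, 4.76% were DE and higher, and 6.19% had every FPC-GFP library above every CON-GFP library. The highest liver, FPC-GFP 11 at 8936 CPM, stood apart from the next at 5301 CPM, and when any 1 library was dropped the log2 fold change stayed between 1.44 and 1.81 with adjusted p from 0.000784 to 0.00257.

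Apoc3 encodes an inhibitor of lipoprotein lipase and of remnant uptake, and it is read from the strand opposite to its neighbours. It ranged from 1957 to 3844 CPM in CON-GFP, with a median of 2905 CPM, and from 1245 to 2473 CPM in FPC-GFP, with a median of 2061 CPM. The groups overlapped only through the lowest control liver at 1957 CPM. Apoc3 fell by 0.67 on the log2 scale (SE 0.18, adjusted p = 0.0178), and in the 4 CON-GFP and 5 FPC-GFP libraries whose labels carry sample sheet numbers from 55 to 68 it did not pass (log2 fold change -0.49, adjusted p = 0.096). Apoa5, which encodes a plasma protein that promotes lipolysis of triglyceride-rich particles, ranged from 2120 to 4003 CPM in CON-GFP (median 3071 CPM) and from 1669 to 2498 CPM in FPC-GFP (median 2217 CPM). These groups also overlapped, and Apoa5 fell by 0.50 on the log2 scale (SE 0.17, adjusted p = 0.0422). The call of Apoa5 was lost under 5 alternatives, library size alone (-0.30, adjusted p = 0.158), all 18 libraries in one fit (adjusted p = 0.117), sample sheet numbers 55 to 68 (adjusted p = 0.11), no filter (adjusted p = 0.0697) and upper-quartile factors (adjusted p = 0.0501), and when CON-GFP mouse 1, 3, 6 or 8 or FPC-GFP mouse 12, 19 or 20 was left out, with adjusted p up to 0.0922.

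Of all genes tested 10.9% fell at an adjusted p under 0.05 with no fold minimum, beside 2 of the 10. Since RNA came from whole liver, fewer hepatocytes and less of an mRNA per hepatocyte cannot be told apart in such a decrease. Of the 11 hepatocyte markers 7 fell and 0 rose with the diet, with a median log2 fold change of -0.58. Their summed levels were 73102 to 104642 CPM in CON-GFP and 61174 to 84806 CPM in FPC-GFP. The 2 most abundant, Alb and Ttr, did not pass, at -0.15 (adjusted p = 0.466) and -0.05 (adjusted p = 0.805). The part of hepatocyte number in the falls of Apoc3 and Apoa5 was not tested. Of the 6 enterocyte markers, Alpi, Cdx2, Lct and Sis had 3 counts or fewer in every CON-GFP and FPC-GFP library. Fabp2, the 1 tested, stood at means of 306 and 301 CPM there, with a log2 fold change of -0.03 beside the 1.69 of Apoa4. With those other markers so low, Fabp2 may not report enterocytes in these livers. Stellate cell markers rose in 4 of 8 and endothelial markers in 3 of 6, 1 of 4 T cell markers fell, and 0 of 4 B cell and 0 of 4 cholangiocyte markers changed.

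The ratio of counts within a library gives the same neighbours free of scaling. It is not free of trends with length or GC content, since Apoa4 has 1815 exonic bases, Apoa1 1236 and Apoc3 1014. In CON-GFP the ratio of Apoa4 to Apoa1 had a median of 0.202 (range 0.128 to 0.378), and in FPC-GFP it had a median of 0.659 (range 0.522 to 1.06). Apoa4 to Apoc3 moved from a median of 0.459 (range 0.334 to 1.03) to 2.39 (range 1.74 to 3.61). In neither ratio did the 2 groups overlap. The part of length or GC trends in these ratios was not tested.

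Apob, the core protein of VLDL, ranged from 3969 to 5945 CPM in CON-GFP (median 4773 CPM) and from 3423 to 4649 CPM in FPC-GFP (median 3761 CPM). The groups overlapped and the log2 fold change was -0.32 (SE 0.13, adjusted p = 0.0832), which passed with the length trend removed (adjusted p = 0.0307), in the DESeq2 Wald test (adjusted p = 0.0313) and without FPC-GFP mouse 20 (adjusted p = 0.0495). Mttp, its partner in lipidation, ranged from 207 to 265 CPM in CON-GFP (median 253 CPM) and from 247 to 321 CPM in FPC-GFP (median 286 CPM), with a log2 change of 0.20 (SE 0.11, adjusted p = 0.179). Scaled by library size alone, which raised the median of all genes by 0.20 on the log2 scale, Mttp had a log2 fold change of 0.40 and an adjusted p of 0.0104.

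The genes of the 2 main HDL proteins did not pass the test. Apoa1 ranged from 5349 to 10719 CPM in CON-GFP (median 6701 CPM) and from 4547 to 8460 CPM in FPC-GFP (median 7306 CPM), and its log2 fold change of -0.10 (SE 0.18, adjusted p = 0.723) changed sign under library size alone (0.11), with the length trend removed (0.01) and in the libraries with sample sheet numbers from 55 to 68 (0.10). Apoa2 ranged from 7923 to 11833 CPM in CON-GFP (median 10378 CPM) and from 5334 to 9821 CPM in FPC-GFP (median 8867 CPM), with a log2 change of -0.30 (SE 0.16, adjusted p = 0.179).

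Among the genes of the chromosome 7 group none passed the test with the diet. Apoe ranged from 12225 to 24573 CPM in CON-GFP (median 19124 CPM) and from 17589 to 24146 CPM in FPC-GFP (median 23009 CPM), a log2 change of 0.16 (SE 0.17, adjusted p = 0.513) that became -0.09 with the GC trend removed. Apoe is also made by macrophages, and 8 of 8 Kupffer cell markers rose, with summed levels of 142 to 293 CPM in CON-GFP and 414 to 695 CPM in FPC-GFP. Apoc1, whose protein inhibits the uptake of remnants, ranged from 3740 to 8520 CPM in CON-GFP (median 5800 CPM) and from 3995 to 5194 CPM in FPC-GFP (median 4684 CPM), with a log2 change of -0.36 (SE 0.17, adjusted p = 0.131). Apoc2 had a log2 change of -0.47 (SE 0.22, adjusted p = 0.129), from 2.90 to 3.95 CPM in CON-GFP and from 1.35 to 3.67 CPM in FPC-GFP. With the GC trend removed Apoc1 and Apoc2 passed, at -0.57 (adjusted p = 0.0468) and -0.69 (adjusted p = 0.0302), as they did without CON-GFP mouse 7 (Apoc1, adjusted p = 0.0332) and without FPC-GFP mouse 12 (Apoc2, adjusted p = 0.0418). In all, 3 of the 10 fitted changes were above 0 and 7 below, with a median log2 fold change of -0.31 beside 0.01 for all genes. Under library size alone the split was 4 above and 6 below.

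**Figure D2:**
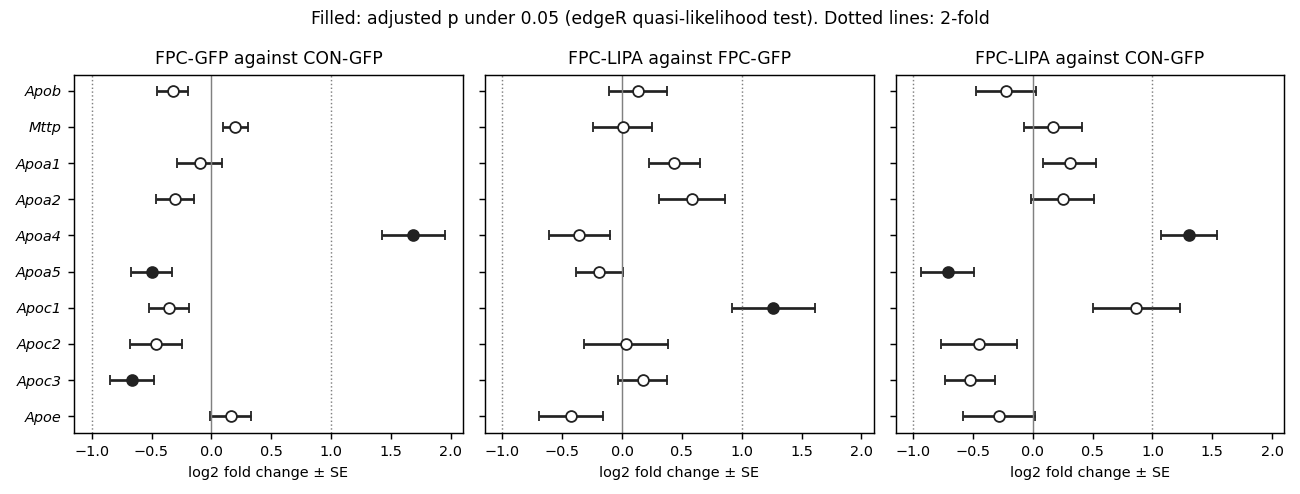
Log2 fold change ± SE (x axis) of each of the 10 genes (y axis) in the 3 comparisons, FPC-GFP against CON-GFP, FPC-LIPA against FPC-GFP and FPC-LIPA against CON-GFP. Filled points have an adjusted p under 0.05 in edgeR's quasi-likelihood test and dotted lines mark 2-fold. Apoa4 at 1.69 and 1.30 and Apoc1 at 1.26 are the 3 filled points past 2-fold.

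With LIPA on the FPC diet 1 of the 10 genes, Apoc1, had an adjusted p under 0.05, beside 21.2% of all genes tested. Its fitted level was 2.40-fold that of FPC-GFP, which made it DE, as were 11.4% of all genes tested. The high values were in 3 of the 6 FPC-LIPA livers, and without those livers Apoc1 did not pass the test. Apoa4, which rose with the diet, did not pass the test, and neither did Apob and Mttp. This comparison uses the same FPC-GFP libraries as the diet comparison, so noise in them enters both with opposite signs.

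Apoc1 ranged from 3995 to 5194 CPM in the 6 FPC-GFP livers, with a median of 4684 CPM. In FPC-LIPA it ranged from 5041 to 20836 CPM, with a median of 10072 CPM. It was at 5601, 5250 and 5041 CPM in mice 31, 33 and 34, and at 15304, 20836 and 14543 CPM in mice 36, 37 and 39. Of the 6 FPC-LIPA livers 5 were above the highest FPC-GFP liver, mice 31 and 33 by little and mice 36, 37 and 39 by far more. The log2 fold change was 1.26 (SE 0.35, adjusted p = 0.0253), and this 1 gene of 10 compares with 11.4% of the 14620 genes tested that were DE, 10.3% that were DE and higher and 21.2% that had an adjusted p under 0.05. Without mice 36, 37 and 39 the log2 fold change was 0.20 (SE 0.13, adjusted p = 0.43), while 0.761% of all genes tested were then DE.

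The 3 livers with high Apoc1 are the 3 in which ribosomal protein genes took 6.33% to 8.02% of counts and levels fell with transcript length. Apoc1 has 744 exonic bases, the second shortest of the 10 after Apoa2 with 537. With each library's length trend removed, Apoc1 had a log2 fold change of 0.51 (adjusted p = 0.121). The call was also lost when any 1 of FPC-GFP mice 11, 12 and 20 or FPC-LIPA mice 36, 37 and 39 was left out, with adjusted p up to 0.0608. The part of the length trend in the rise was not tested further.

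**Figure D3:**
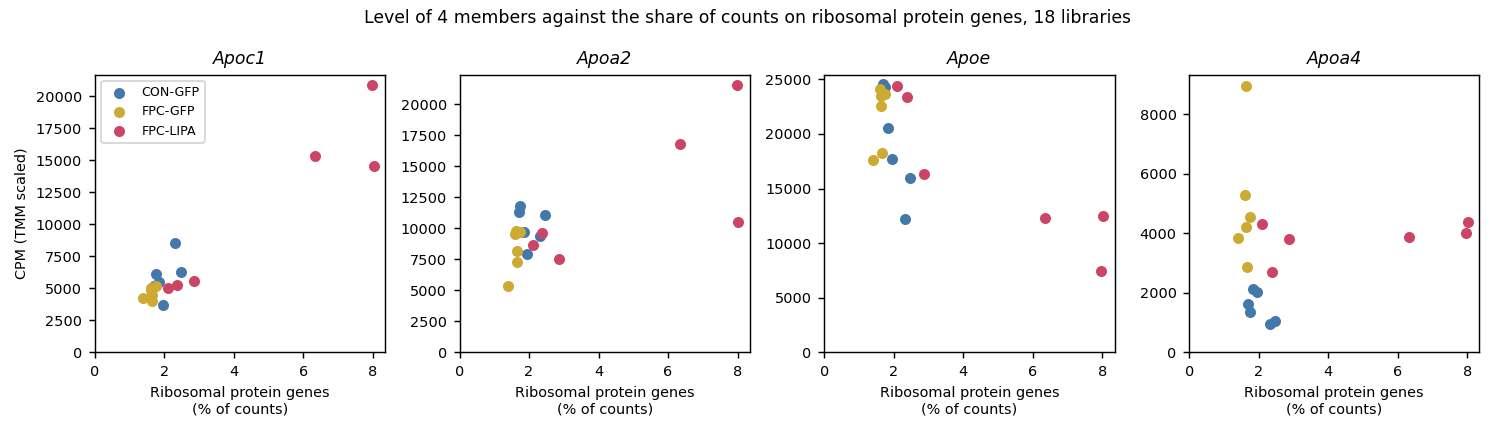
Level of Apoc1, Apoa2, Apoe and Apoa4 in CPM (y axis) against the percent of counts on ribosomal protein genes (x axis) in the 18 livers, coloured by group. The 3 FPC-LIPA livers at 6.33% or more have Apoc1 at 14543 to 20836 CPM and Apoe at 7486 to 12456 CPM, while their Apoa4, at 3864 to 4386 CPM, lies among the other livers on the FPC diet.

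Apoa2 ranged from 5334 to 9821 CPM in FPC-GFP and from 7534 to 21601 CPM in FPC-LIPA, with medians of 8867 and 10069 CPM. Its 2 highest livers were mice 36 and 37 at 16840 and 21601 CPM, and the groups overlapped. The log2 fold change was 0.59 (SE 0.28, adjusted p = 0.126) with all libraries and 0.06 without mice 36, 37 and 39. Apoe went the other way in the same livers, at 12259, 7486 and 12456 CPM in mice 36, 37 and 39 against 16359, 23404 and 24417 CPM in mice 31, 33 and 34. The group medians were 23009 CPM in FPC-GFP and 14407 CPM in FPC-LIPA, and the log2 fold change of -0.43 (SE 0.27, adjusted p = 0.242) did not pass the test and was -0.00 without the 3 livers. The ratio of Apoc1 to Apoe counts within a library is free of scaling. It is not free of trends with length or GC content, since Apoc1 has 744 exonic bases (GC 54.9%) and Apoe 2138 (GC 59.5%). The ratio lay between 0.211 and 0.697 in CON-GFP (median 0.26) and between 0.199 and 0.24 in FPC-GFP (median 0.216). In FPC-LIPA it lay between 0.206 and 2.78 (median 0.756). The part of these trends in the ratio was not tested.

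Apoa4 ranged from 2705 to 4386 CPM in FPC-LIPA, with a median of 3945 CPM, beside 2886 to 8936 CPM and a median of 4376 CPM in FPC-GFP. The groups overlapped, with FPC-GFP livers at 8936, 5301 and 4548 CPM above the highest FPC-LIPA liver. The log2 fold change was -0.36 (SE 0.25, adjusted p = 0.299). With the length trend removed Apoa4 had an unadjusted p under 0.05 in the quasi-likelihood test. The count ratio of Apoa4 to Apoa1 had medians of 0.659 in FPC-GFP and 0.401 in FPC-LIPA. That of Apoa4 to Apoc3 had medians of 2.39 and 1.81, and the ranges overlapped in both ratios. Apoa1 ranged from 6945 to 11851 CPM in FPC-LIPA (median 8712 CPM), with a log2 change of 0.44 (SE 0.22, adjusted p = 0.142). Apob ranged from 2028 to 6749 CPM in FPC-LIPA (median 3935 CPM), with the lowest liver in mouse 33 and the highest in mouse 37, and its log2 fold change was 0.13 (SE 0.25, adjusted p = 0.708). Mttp had the same 2 extremes, 172 CPM in mouse 33 and 523 CPM in mouse 37 (median 247 CPM), with a log2 change of 0.00 (SE 0.25, adjusted p = 0.992). Without mice 36, 37 and 39 Mttp had a log2 change of -0.43 (SE 0.16, adjusted p = 0.176). It was then the 1 gene of the 10 with an unadjusted p under 0.05, beside 2817 of the 15246 genes tested. Apob was at -0.22, Apoa4 at -0.44 and Apoa1 at 0.15, none of which passed.

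The remaining 3 genes did not pass the test either. Apoa5 ranged from 1253 to 2313 CPM in FPC-LIPA (median 1912 CPM), a log2 change of -0.19 (SE 0.19, adjusted p = 0.476). Apoc3 ranged from 1788 to 2795 CPM (median 2040 CPM), a log2 change of 0.17 (SE 0.20, adjusted p = 0.54). Apoc2 ranged from 1.11 to 4.07 CPM, with a log2 change of 0.03 (SE 0.35, adjusted p = 0.956). Without mice 36, 37 and 39 the log2 fold changes of Apoa5, Apoc3 and Apoc2 were -0.16, 0.01 and 0.25. In all, 7 of the 10 fitted changes were above 0 and 3 below, with a median of 0.08 beside 0.04 for all genes. Under library size alone, which moved the median of all genes by -0.13, the split was 4 above and 6 below, and without mice 36, 37 and 39 it was 5 and 5.

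**Figure D4:**
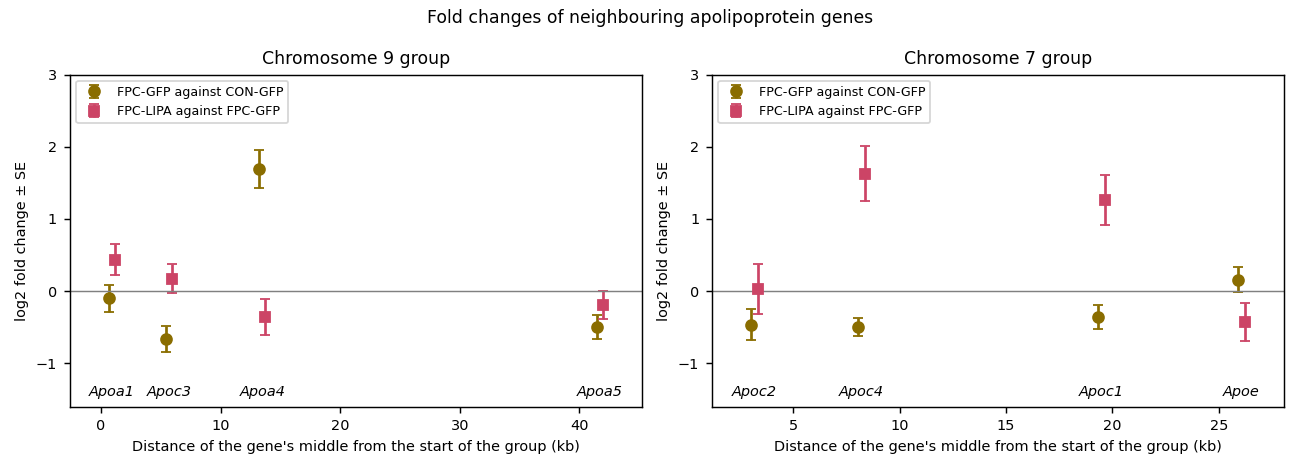
Log2 fold change ± SE (y axis) of neighbouring genes at their distance from the start of the group in kb (x axis), for the chromosome 9 group on the left and the chromosome 7 group on the right. Circles are FPC-GFP against CON-GFP and squares FPC-LIPA against FPC-GFP. With the diet Apoa4 stands at 1.69 between Apoc3 at -0.67 and Apoa5 at -0.50, and with LIPA Apoc4 at 1.63 and Apoc1 at 1.26 stand apart from Apoe at -0.43.

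Between FPC-LIPA and CON-GFP both the diet and the vector differed, so their parts cannot be told apart, and the comparison shares libraries with the other 2. Apoa4 was again higher in every FPC-LIPA liver than in every CON-GFP liver, with a log2 change of 1.30 (SE 0.24, adjusted p = 0.00165), a 2.47-fold rise. Of the 14433 genes tested 15.1% were DE, 11.8% were DE and higher, and 6.26% had no overlap in that direction. Apoa5 fell by 0.71 on the log2 scale (SE 0.22, adjusted p = 0.0301), with 5 of 6 FPC-LIPA livers below the lowest CON-GFP liver. That made 2 of the 10 genes called at an adjusted p under 0.05, beside 22.9% of all genes, and the 1 that fell compares with 8.2%. That call of Apoa5 was lost under sample sheet numbers 55 to 68 (-0.64, adjusted p = 0.105), library size alone (-0.61, adjusted p = 0.0813), no filter (-0.75, adjusted p = 0.0596) and upper-quartile factors (-0.63, adjusted p = 0.0509), without mice 36, 37 and 39 (-0.66, adjusted p = 0.0545) and when CON-GFP mouse 1, 3 or 8 or FPC-LIPA mouse 36 was left out, with adjusted p up to 0.0749. Hepatocyte markers were lower here too, 8 of 11 having fallen and 0 risen, with a median log2 fold change of -1.17. Alb and Ttr, the most abundant of them, did not pass, at -0.41 (adjusted p = 0.173) and -0.21 (adjusted p = 0.454). The part of hepatocyte number in the fall of Apoa5 was not tested.

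The other 8 genes did not pass the test between FPC-LIPA and CON-GFP. Apoc3 had a log2 fold change of -0.52 (adjusted p = 0.0815) and Apoc1 one of 0.87 (adjusted p = 0.093), which was -0.15 without mice 36, 37 and 39. The other 6 had adjusted p from 0.305 to 0.627, and Apob, Mttp, Apoa1, Apoa2 and Apoe had log2 fold changes of -0.22, 0.17, 0.31, 0.25 and -0.28. Above and below 0 lay 5 genes each, with a median of -0.03 beside 0.04 for all genes.

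The wider lipoprotein pathway was described by 78 further genes in 6 lists, of which 76 were tested and Apod and Lrp8 were not. With the diet 13 of the 76 rose and 16 fell, beside 12.9% and 10.9% of all genes, with a median log2 fold change of -0.09. In the libraries with sample sheet numbers 55 to 68, 7 rose and 11 fell, where 13.6% of all genes were called in either direction. Under library size alone 22 rose and 8 fell, so the balance of directions depends on the scaling. Below, single genes that did not reach 2-fold are named only where they are among the 2 most abundant of their list or, chosen after their values were seen, where they make up a count of 5 or fewer.

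Among the other apolipoproteins 6 of the 9 tested fell with the diet and 0 rose, with a median log2 fold change of -0.54. Under library size alone 3 fell, and with sample sheet numbers 55 to 68, 4 fell. Saa4, a constitutive serum amyloid A of HDL, went from a control mean of 605 CPM to 213 CPM on the FPC diet without overlap, a log2 change of -1.51 (SE 0.24, adjusted p = 0.000877). The acute-phase genes Saa1 and Saa2 were also lower, Saa1 with a log2 change of -2.01 (SE 0.55, adjusted p = 0.0162) and Saa2 by 4.01-fold (adjusted p = 0.0368), but the 2 are close paralogs whose reads may be confused, the groups overlapped, and 1 control liver, of mouse 3, held 1106 CPM of Saa1. Without that liver Saa1 had a log2 fold change of -1.08 (adjusted p = 0.0327) and Saa2 one of -0.50 (adjusted p = 0.156). Apoh (beta-2 glycoprotein I) fell by 0.54 on the log2 scale (adjusted p = 0.00895), and Clu (clusterin) had a log2 fold change of -0.17 (adjusted p = 0.452). Apoc4, which lies between Apoc2 and Apoc1, was also among the genes that fell, by 0.50 (adjusted p = 0.0109). Under library size alone neither Apoh (-0.35, adjusted p = 0.0592) nor Apoc4 (-0.31, adjusted p = 0.0753) passed.

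In the list of VLDL assembly and secretion 1 of 20 genes rose with the diet and 3 fell, none by 2-fold. The gene that rose was Mia3, a cargo receptor for large secretory loads, at 0.34 (adjusted p = 0.0454), and those that fell were Aadac, Smlr1 and Klhl12, at -0.49, -0.53 and -0.33. P4hb, which encodes protein disulfide isomerase, the partner subunit of MTTP, had a log2 fold change of -0.10 (adjusted p = 0.495), and the carboxylesterase Ces1d one of -0.24 (adjusted p = 0.489). The other 14 genes of the list did not pass the test either.

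In the list of receptors and their regulators 5 of 10 rose with the diet and 0 fell, with a median of 0.49. Vldlr, a receptor for triglyceride-rich particles, had a log2 change of 1.18 (SE 0.36, adjusted p = 0.0276), which did not pass with sample sheet numbers 55 to 68 (adjusted p = 0.0609). Sort1 at 0.84 and Lsr at 0.56 were also among those that rose, while Lrp1 and Sdc1, the most abundant of the list, were at -0.20 and -0.16 and did not pass. In the lipase list Lpl rose from 11.4 to 49.5 CPM without overlap (log2 fold change 2.11, SE 0.28, adjusted p = 0.000298). The fatty acid translocase Cd36 rose by 0.60 and Angptl4 fell by 0.74. Lpl and Cd36 are also expressed by macrophages, and 7 of 10 monocyte and macrophage markers rose, with summed levels of 81.4 to 136 CPM in CON-GFP and 164 to 432 CPM in FPC-GFP, and their part in these rises was not tested.

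Among 11 genes of HDL formation 3 rose and 3 fell with the diet. The sterol exporter Abcg1 went from 4.86 to 11.3 CPM without overlap (log2 fold change 1.21, SE 0.15, adjusted p = 0.000198) and the phospholipid transfer protein Pltp from 34.0 to 93.0 CPM (log2 fold change 1.44, SE 0.40, adjusted p = 0.0183). Pon1, the paraoxonase of HDL, fell by 0.60 (adjusted p = 0.00787) but did not pass under library size alone (-0.41, adjusted p = 0.053). Lcat, which esterifies the cholesterol of HDL, had a log2 fold change of -0.21 (adjusted p = 0.378). Of 19 transcriptional regulators 2 rose and 2 fell. Srebf1, the gene of the lipogenic factor SREBP-1, went from 161 to 454 CPM without overlap (log2 fold change 1.49, SE 0.18, adjusted p = 0.000198) and the clock repressor gene Nr1d1 had a log2 change of 1.85 (SE 0.59, adjusted p = 0.0335), which did not pass with sample sheet numbers 55 to 68 (1.33, adjusted p = 0.198). The coactivator Ppargc1a had one of -1.17 (SE 0.28, adjusted p = 0.00869) and the bile acid receptor Nr1h4 one of -0.34 (adjusted p = 0.0354). Hnf4a, a main activator of the chromosome 9 genes, had a log2 fold change of -0.15 (adjusted p = 0.55) and Mlxipl, the gene of ChREBP, one of 0.06 (adjusted p = 0.798).

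**Figure D5:**
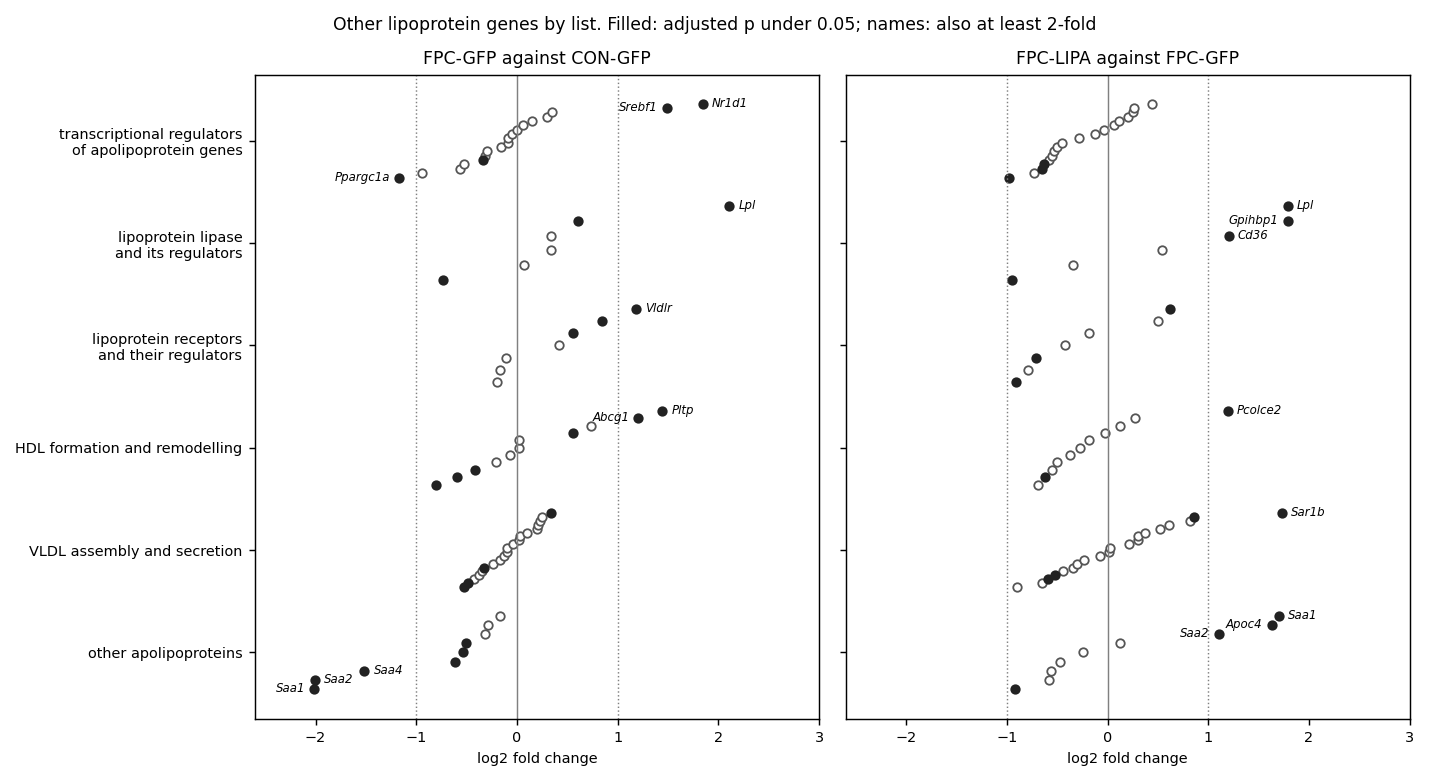
Log2 fold change (x axis) of the reported genes of the 6 pathway lists (y axis), in FPC-GFP against CON-GFP on the left and FPC-LIPA against FPC-GFP on the right. Each point is a gene, filled where the adjusted p is under 0.05 and named where it is also at least 2-fold. Lpl is named on the higher side in both panels, at 2.11 and 1.79.

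With LIPA on the FPC diet 10 of the 76 pathway genes rose and 13 fell, beside 14.4% and 6.87% of all genes, with a median log2 fold change of -0.24. Under library size alone 7 rose and 6 fell. With sample sheet numbers 55 to 68, 1 rose and 0 fell, where 0.706% of all genes were called in either direction. By list, 3 rose and 1 fell of 9 other apolipoproteins, 2 and 2 of 20 genes of VLDL assembly, 1 and 1 of 11 genes of HDL formation and 3 and 1 of 7 genes of the lipase list. Without mice 36, 37 and 39 the call was kept by 1 gene of the 76 alone, Gpihbp1, which anchors lipoprotein lipase to capillary endothelium. Of all genes 1.22% were called in that fit. Gpihbp1 went from a mean of 22.6 to 78.0 CPM without overlap (log2 fold change 1.79, SE 0.30, adjusted p = 0.00954), and at 1.08 (adjusted p = 0.0111) it also passed without these mice. Lpl went from 49.5 to 171 CPM (log2 fold change 1.79, SE 0.37, adjusted p = 0.0136; 1.23 and adjusted p = 0.0883 without them) and Cd36 from 210 to 483 CPM (1.20, SE 0.39, adjusted p = 0.04; 0.28 and adjusted p = 0.528 without them). Monocyte and macrophage markers lay at 501 to 1005 CPM in FPC-LIPA, 6 of 10 having risen, and 0 of 6 endothelial markers changed. Kupffer cell markers rose in 3 of 8, stellate cell markers in 3 of 8, B cell markers in 2 of 5 and T cell markers in 1 of 5, and 0 of 4 cholangiocyte markers changed. The enterocyte marker Fabp2 rose by 1.95 on the log2 scale (adjusted p = 0.0157), to a mean of 1163 CPM with an SD of 841 CPM, and the groups overlapped. Cdx2 and Sis stayed at 3 counts or fewer in every FPC-LIPA library, and Alpi and Lct exceeded 3 counts in at least 1. The part of these cell types in the rises of Lpl, Gpihbp1 and Cd36 was not tested.

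Apoc4, the neighbour of Apoc1, rose in the same livers. It stood at 780, 944 and 676 CPM in mice 31, 33 and 34 and at 2353, 2444 and 3690 CPM in mice 36, 37 and 39, beside a mean of 589 CPM in FPC-GFP. The log2 fold change was 1.63 (SE 0.38, adjusted p = 0.0171), and 0.45 (adjusted p = 0.161) without mice 36, 37 and 39. Sar1b, a GTPase of the vesicles that carry lipoproteins out of the endoplasmic reticulum, behaved alike, with 440, 1185 and 792 CPM in those mice, a group mean of 481 CPM beside 145 CPM in FPC-GFP, and a log2 change of 1.73 (SE 0.48, adjusted p = 0.0257) that was 0.11 (adjusted p = 0.757) without them. Saa1 rose by 1.71 (adjusted p = 0.0127), Saa2 by 1.10 (adjusted p = 0.0269) and Pcolce2, an enhancer of procollagen and proapolipoprotein A-I processing, by 1.19 (adjusted p = 0.0215), and none of these 3 passed without mice 36, 37 and 39.

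Most decreases with LIPA lay among receptors and regulators. Of the 10 receptor genes 4 fell and 1 rose, with Lrp1, a remnant receptor, going from 396 to 210 CPM without overlap (log2 fold change -0.91, SE 0.23, adjusted p = 0.0203). Sort1 was also among those that fell, at -0.71, and the gene that rose was Mylip, which encodes a ubiquitin ligase, at 0.62. Of the 19 transcriptional regulators 4 fell and 0 rose. Among them Hnf4a went from 489 to 247 CPM (log2 fold change -0.98, SE 0.32, adjusted p = 0.0425). Without mice 36, 37 and 39 Hnf4a had a log2 fold change of -0.46 (adjusted p = 0.225) and Lrp1 one of -0.52 (adjusted p = 0.11). The 11 hepatocyte markers had a median log2 fold change of -0.57 with LIPA, 2 of them having fallen, and summed levels of 44915 to 72739 CPM in FPC-LIPA. Alb and Ttr, the most abundant of them, did not pass, at -0.23 (adjusted p = 0.387) and -0.14 (adjusted p = 0.596).

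Against CON-GFP, 11 of the 76 pathway genes were higher and 17 lower in FPC-LIPA, beside 14.7% and 8.2% of all genes. Without mice 36, 37 and 39, 10 were higher and 17 lower, where 18.0% of all genes were called in either direction. Under library size alone the split was 12 higher and 10 lower. Of the reported genes at least 2-fold different, Lpl had the largest fitted rise at 3.86 on the log2 scale, followed by Gpihbp1 at 2.09, Pcolce2 at 1.90, Cd36 at 1.77, Vldlr at 1.66, Abcg1 at 1.46, Apoc4 at 1.09 and Mylip at 1.01. The decreases were Apom at -1.55, Saa4 at -1.42, Foxo1 at -1.19, Hnf4a at -1.15, Apoh at -1.14, Lrp1 at -1.13, Angptl4 at -1.11 and Ppargc1a at -1.08, and Bmp1 was 2.003-fold lower. Apom and Saa4 are apolipoproteins of HDL, and Foxo1 and Hnf4a are among the factors known to act on Mttp, Apoc3 and Apob. Without mice 36, 37 and 39 Apoc4 was at -0.050, and Cd36, Mylip, Apoh, Hnf4a, Lrp1 and Bmp1 were no longer DE either. Of the reported genes, Pltp and Srebf1 became DE in that fit. Under library size alone Hnf4a, Lrp1, Ppargc1a and Bmp1 were not DE, while Sar1b and Srebf1 became so.

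Across the 18 livers the genes most like each member in log2 CPM differed between the members. The correlations are descriptions over livers of 3 groups that share diet, vector and library properties, among 12740 genes with a mean of at least 1 CPM. Apoa4 was most like Fam83a (r = 0.925), Csad (r = 0.909) and Ehd4 (r = 0.907). Apoc1 was most like Atp5k (r = 0.987), Smim11 (r = 0.985) and Mrps21 (r = 0.983), and Apoa2 like Cox5b (r = 0.927), Sod1 (r = 0.923) and Ndufc1 (r = 0.918). Apob was most like Rb1cc1 (r = 0.965), Xiap (r = 0.925) and Ipo7 (r = 0.923), and Apoe like Chchd10 (r = 0.967), Sgta (r = 0.957) and Acot7 (r = 0.956). For Apoa1 (Mrpl34, Ddt and Cox5a), Apoa5 (Tst, Ahcy and Haao), Apoc3 (Hsd17b10, Serpina3m and Gm30784), Mttp (Hsdl2, Rbm12 and Tbc1d15) and Apoc2 (Ccnl2, Apbb3 and Letm2) the nearest gene had r of 0.859, 0.901, 0.834, 0.883 and 0.923. Among the members themselves Apoa2 and Apoc1 had r = 0.803, Apoc1 and Apoe r = -0.818, and Apoa4 and Apoc3 r = -0.465.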

How the data were processed

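Liver RNA of 18 mice was sequenced as paired reads, 1 library per mouse. The authors trimmed reads with Trimmomatic, mapped them to GRCm38 with HISAT2 (version 2.1.0 in the submitters' processing notes) and summed reads over genes with Feature Counts, and the deposited values are raw counts with no normalization. The annotation, strand setting and handling of multiply mapped reads are not given in the sources used here. A stranded and an unstranded kit are both named, so overlapping genes and paralogs are uncertain. Columns were matched to mice by group and mouse number, with mouse 37 titled 37b in the labels, and 5 other columns of counts were not used.

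Each comparison was fitted on its 12 libraries with edgeR 4.0.16 in R 4.3.3 (filterByExpr, TMM, quasi-likelihood test, Benjamini-Hochberg adjustment over all genes tested), which was tested on simulated data. CPM were scaled by TMM over 18 libraries, and errors are SD over mice or SE of the fit. Genes named were the 10 members, DE genes and the 2 most abundant genes of each list, and the 3 genes most correlated with each member. Some genes of the lists enter the counts but are not reported here by name or drawn. Members and lists were chosen with earlier results of these data known. Alternatives were DESeq2 1.42.0 size factors and Wald test, upper-quartile factors, library size alone, no filter, at least 1 CPM in 6 libraries, limma-voom (limma 3.58.1), a robust fit, all 18 libraries in one fit, removal of length or GC trends, the libraries with sample sheet numbers 55 to 68 alone, leave-one-out fits, a minimum of 1.5-fold and an adjusted p under 0.01. Places and lengths are from GENCODE M21 and promoters from RefSeq. Tables and figures used Python 3.11.15.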

Additional observations from a re-analysis of the deposited data

Results flagged for a closer look

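Of the 30 sets of 6 livers formed by the 10 genes in the 3 groups, 1 had a liver far from the other 5 by Dixon's criterion at the 95% level, which chance alone meets in about 1 in 20 sets. Apoa4 in FPC-LIPA was at 2705 CPM in mouse 33 and between 3817 and 4386 CPM in the other 5, a gap of 0.662 of the group's range against a critical value of 0.625. That liver still lay above the highest CON-GFP liver at 2125 CPM.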

How the results depend on the processing

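No paired analysis was possible because the groups share no mouse numbers. With the diet, DE genes numbered 1 and became 2 at a 1.5-fold minimum (Apoa4 and Apoc3), and genes called at an adjusted p under 0.05 went from 3 to 5 with the GC trend removed and to 1, Apoa4, with sample sheet numbers from 55 to 68, where Apoc3 had a log2 fold change of -0.49 (adjusted p = 0.096). Over all genes tested, 23.8% were called at that threshold in the main fit and 13.6% with those sample sheet numbers. With LIPA, the 1 DE gene became 0 under library size alone, limma-voom, the length trend removed, sample sheet numbers 55 to 68, an adjusted p under 0.01 and without mice 36, 37 and 39, and lay from 0 to 1 with each library left out. Of all genes 11.4% were DE in the main fit, 0.651% with sample sheet numbers 55 to 68 and 0.761% without these mice. DE genes that rose and fell numbered 1508 and 163 in the main fit and 892 and 124 under library size alone. They numbered 807 and 255 with limma-voom and 1197 and 235 with the length trend removed. The 1 gene with an adjusted p under 0.05 became 0 under limma-voom, the length trend removed, sample sheet numbers 55 to 68 and without mice 36, 37 and 39, and lay from 0 to 1 with each library left out. Of all genes 21.2% were called so in the main fit, 0.706% with sample sheet numbers 55 to 68 and 1.22% without these mice. The call of Apoc1 was lost without FPC-GFP mouse 11, 12 or 20 or FPC-LIPA mouse 36, 37 or 39 (log2 fold change 0.97 to 1.41, adjusted p 0.00689 to 0.0608 over the 12 fits). Its values were 0.99 (adjusted p = 0.0285) under library size alone, 1.04 (adjusted p = 0.0512) with limma-voom and 0.95 (adjusted p = 0.104) with sample sheet numbers 55 to 68. At an unadjusted p under 0.05, edgeR gave 1 gene under library size alone, 2 with the length trend removed, 1 with sample sheet numbers 55 to 68 and 1 without mice 36, 37 and 39 (Mttp), and limma-voom gave 1. Over all genes, 5825 of 14620 had an unadjusted p under 0.05 in the main fit. There were 4414 of 14736 with sample sheet numbers 55 to 68 and 2817 of 15246 without mice 36, 37 and 39. In FPC-LIPA against CON-GFP, DE genes went from 1 to 2 at a 1.5-fold minimum and from 1 to 2 over the left-out libraries, with Apoc1 added without FPC-LIPA mouse 34. Genes called at an adjusted p under 0.05 went from 2 to 1 with upper-quartile factors, no filter, sample sheet numbers 55 to 68 and without mice 36, 37 and 39, and lay from 1 to 3 over the left-out libraries, with 1 without CON-GFP mouse 1, 3 or 8 or FPC-LIPA mouse 36. Of all genes 22.9% were called in the main fit, 9.4% with sample sheet numbers 55 to 68 and 18.0% without mice 36, 37 and 39. In that comparison the log2 fold change of Apoc4 was -0.050 (adjusted p = 0.871) without mice 36, 37 and 39, against 1.09. The causes of these changes were not tested. Of the values of single genes under alternatives, 2768 kept their direction and their side of the threshold, 222 lost the call, 87 gained it, 102 changed sign without a call on either side and 1 reversed. Apoa4 stayed called against CON-GFP in every fit of both comparisons. With 6 mice in a group, and 14 of 18 libraries inside the sample sheet range, small changes of abundant genes and any change of Apoc2 at 14 to 165 reads remain poorly measured.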
